A study of Homo sapiens with 5 samples.

Results

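In SNU638 cells, 14604 of the 48793 BRG1 peaks lay inside gene bodies and were found with anti-BRG1 alone. They were chosen by the peak calls themselves: the summit lay inside a protein-coding gene of GENCODE release 44 and farther than 1 kb from every protein-coding or lncRNA transcript start, and the peak shared no base with the ACTL6A, NRF2 or IgG 2 peak lists. Being alone and being away from starts are therefore properties of the choice and not results. Sequence, annotation class, peak height and host gene were not used to choose them.

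SNU638 is an established human gastric cancer line, and every library came from these cells, for which the labels name no treatment. Binding was profiled by CUT&Tag, in which protein A fused to the Tn5 transposase is tethered to an antibody and inserts adapters into the nearby DNA. There was 1 library each for anti-BRG1, anti-ACTL6A and anti-NRF2 and 2 for IgG, and their lists together held 83512 peaks. IgG 2 had 1746 peaks and was the control used in the choice, whereas IgG 1, whose peak names carry the BRG1 name, had 11 peaks, and 1 BRG1-alone gene-body peak overlapped it. No antibody was replicated, so the intervals below are 95% counting intervals of shares of peaks. They are Wilson intervals for a share and Newcombe intervals for a difference of shares, except where a normal interval is named. They treat peaks as independent and hold no error between cultures or libraries.

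BRG1, encoded by SMARCA4, is an ATPase of the SWI/SNF chromatin remodelling complexes, which slide and evict nucleosomes at promoters and enhancers. ACTL6A (BAF53A) is an actin-like subunit of SWI/SNF that is also found in other chromatin complexes. Introns and other gene-body DNA hold many enhancers, and AP-1, a dimer of FOS and JUN family proteins, is known to recruit SWI/SNF to enhancers.

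A motif that was more frequent at the summits than in the DNA beside them was TGACTCA, the AP-1 site. Sequences of 101 bases around the summit are shown for the highest peaks, by -log10 q, with an AP-1 match centred within 25 bp of the summit, so that the site can be seen in its context. Positions are on GRCh38, counted from 1, and sequences are read 5′ to 3′ on the + strand. Capitals mark the match, which reads TGACTCA on the + strand or TGAGTCA where the site lies on the other strand. Of the 10 peaks with the highest q, 8 that lay in introns are printed, and 1 lay in a coding exon of ARHGEF2.
ALKBH8, chr11:107562986-107563086: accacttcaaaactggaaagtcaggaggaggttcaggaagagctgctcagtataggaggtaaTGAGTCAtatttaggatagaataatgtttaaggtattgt
WFDC3, chr20:45779029-45779129: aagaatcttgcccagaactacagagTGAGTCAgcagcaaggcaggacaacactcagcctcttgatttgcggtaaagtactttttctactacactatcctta
MARCHF7, chr2:159755972-159756072: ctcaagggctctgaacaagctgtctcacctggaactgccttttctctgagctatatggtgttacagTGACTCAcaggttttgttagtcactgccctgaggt
AMHR2, chr12:53428364-53428464: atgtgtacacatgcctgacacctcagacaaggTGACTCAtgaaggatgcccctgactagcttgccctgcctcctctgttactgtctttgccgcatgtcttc
LIMD1, chr3:45668094-45668194: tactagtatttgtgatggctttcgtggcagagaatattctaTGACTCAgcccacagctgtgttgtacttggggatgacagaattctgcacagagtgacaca
SEMA3E, chr7:83468434-83468534: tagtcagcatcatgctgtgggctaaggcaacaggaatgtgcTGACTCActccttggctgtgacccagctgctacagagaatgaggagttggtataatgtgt
NDUFA10, chr2:239927475-239927575: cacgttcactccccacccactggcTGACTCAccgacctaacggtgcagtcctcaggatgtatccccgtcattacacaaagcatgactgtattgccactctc
TNRC6A, chr16:24701130-24701230: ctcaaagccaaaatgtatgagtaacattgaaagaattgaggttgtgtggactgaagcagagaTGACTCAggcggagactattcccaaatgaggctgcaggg

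A further motif that stood out was the core of the CTCF site, CCA, 2 bases of any kind, AG, 2 bases of any kind and GGC. CTCF is the protein that binds insulators and loop anchors. The 4 intronic sequences among the 5 highest peaks with this core within 25 bp of the summit are shown with the core in capitals. This set was chosen after its values were seen.
HTT, chr4:3106742-3106842: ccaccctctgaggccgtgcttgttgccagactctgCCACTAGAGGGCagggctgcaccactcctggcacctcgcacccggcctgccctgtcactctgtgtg
DOCK6, chr19:11243426-11243526: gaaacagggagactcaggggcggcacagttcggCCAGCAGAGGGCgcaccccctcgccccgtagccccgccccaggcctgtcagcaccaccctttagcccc
ENSG00000292277, chr7:100217253-100217353: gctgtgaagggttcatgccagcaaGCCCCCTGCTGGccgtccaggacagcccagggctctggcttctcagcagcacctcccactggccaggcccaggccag
PRKCZ, chr1:2139908-2140008: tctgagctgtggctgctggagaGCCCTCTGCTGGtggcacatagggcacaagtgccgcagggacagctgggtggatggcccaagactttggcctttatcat

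The 3 highest BRG1-alone peaks without either motif in the 200 bp around the summit had a window GC content of 71.5% to 77.0%, and the 2 intronic ones are shown for contrast in lower case. The peak in ABI2, also among the 10 highest and without AP-1, had a window GC content of 38.0%.
ARHGEF17, chr11:73362195-73362295: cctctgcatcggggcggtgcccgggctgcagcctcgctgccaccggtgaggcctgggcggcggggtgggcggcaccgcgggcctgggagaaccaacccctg
SRCIN1, chr17:38558447-38558547: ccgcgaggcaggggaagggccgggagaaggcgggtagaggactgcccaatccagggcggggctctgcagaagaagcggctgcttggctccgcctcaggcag

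The peaks were low, and the lower a gene-body BRG1 peak was, the more often it was alone. The lists hold no reads, but the number of fragments over each summit and the number expected there could be recovered from the deposited fold enrichment and p-value. The BRG1-alone gene-body peaks had a median of 7 fragments over the summit (10th to 90th percentile 3 to 17, highest 119), against a median of 0.546 expected. Gene-body BRG1 peaks that shared a base with an ACTL6A peak and none with IgG 2, 2413 in number, had a median of 16 (5 to 49, highest 309). These shared peaks could also overlap NRF2, as did 292 of the 2471 gene-body peaks on ACTL6A. Comparisons with them therefore differ in NRF2 as well as in ACTL6A. The median width was 189 bp for the BRG1-alone peaks and 309 bp for the shared ones. Of the BRG1-alone peaks, 8194 (56.1%) rested on at most 7 fragments, and 535 (3.66%) had over 25, against 31.0% of the shared peaks.

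Of the 17369 gene-body BRG1 peaks, 84.1% were alone, while 71.6% of all BRG1 peaks overlapped none of the 3 lists. This share followed height. It was 95.8% among peaks of 3 fragments, 87.2% among those of 8 to 10, 70.7% among those of 16 to 25, 50.2% among those of 26 to 40 and 21.9% above 40 fragments. With 1 ACTL6A library, a missing ACTL6A peak and a missed one cannot be told apart. Of the gene-body peaks, 2471 overlapped an ACTL6A peak, 569 an NRF2 peak and 90 an IgG 2 peak.

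The values just inside and just outside the limits of the choice were as follows. Alone peaks in a gene 900 to 1000 bp from a start, just outside, numbered 188 with a median of 11 fragments, and 6.91% held AP-1. Those over 1000 and up to 1100 bp away, just inside, numbered 192 with a median of 10 fragments, and 7.81% held AP-1. The nearest ACTL6A peak lay a median of 19163 bp away, and 404 BRG1-alone peaks (2.77%) had one within 0.5 kb. The 131 with one within 100 bp but no shared base had a median of 7 fragments, and 3.82% held AP-1.

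The 10 with the highest -log10 q had between 42 and 95 fragments over the summit, 8 of them were intronic, and 5 held AP-1 in the 200 bp window. The top peak, chr11:73361906-73362374, lay in an intron of ARHGEF17, with 89 fragments against 4.84 expected and a -log10 q of 73.6. A peak in the 3′ UTR of ZBTB7B, a zinc finger transcription factor, had 79 fragments. One in an intron of ATG16L1, an autophagy gene, had 69 fragments. The widest of the 10, at 1546 bp, lay in an intron of SRCIN1 with 95 fragments, and its nearest ACTL6A peak was 1165 bp away.

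In the first intron of LAMC1, which encodes the laminin gamma 1 chain of basement membranes, a peak at chr1:183060436-183060721 had 57 fragments against 1.49 expected, and its window held 2 AP-1 copies. KRT8, the keratin of simple epithelia, held a peak of 64 fragments 1188 bp from a start. The others were in a coding exon of ZNF771 (68 fragments) and in introns of ANKRD28 (47), ABI2, an adaptor of actin regulation (42), and AFF1, a transcription elongation factor (47).

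Most of the BRG1-alone peaks were intronic, but they were densest in coding exons. Of the 14604, 12486 (85.5%, 84.9% to 86.1%) had the summit in an intron, while introns made up 94.6% of the gene-body bases the choice allowed. Coding exons held 1456 peaks (9.97%, 9.49% to 10.5%) on 2.28% of the bases, 51.8 peaks per Mb against 10.7 per Mb of intron. The 3′ UTRs held 634 peaks (17.0 per Mb) and the 5′ UTRs 28 (24.8 per Mb). The shared peaks had the same order for the 2 large classes, with 6.12 per Mb of coding exon and 1.83 per Mb of intron. Within introns, 11.4 BRG1-alone peaks per Mb lay in first introns of the canonical transcripts and 10.7 per Mb in later ones. These were 2752 and 8338 of the 12486 intronic peaks. The rest lay in no intron of a canonical transcript, among them the named peaks in KRT8, ATG16L1, NDUFA10, TNRC6A and ENSG00000292277. Windows centred in coding exons had a median GC content of 62.5%, and those in introns 57.0%.

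Density fell with distance from transcript starts, well beyond the 1 kb limit. There were 25.8 BRG1-alone peaks per Mb of gene body at 1 to 2 kb from the nearest start, 17.9 at 5 to 10 kb, 9.90 at 20 to 50 kb, 3.07 at 100 to 200 kb and 1.47 beyond 200 kb. The shared peaks went from 5.46 per Mb at 1 to 2 kb to 0.410 at 100 to 200 kb and 0.419 beyond 200 kb, where there were 56 BRG1-alone and 16 shared peaks. The median distance was 10878 bp for the BRG1-alone peaks and 9364 bp for the shared ones. Median height fell over the same range, from 10 fragments at 1 to 2 kb to 5 at 100 to 200 kb.

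**Figure D1:**
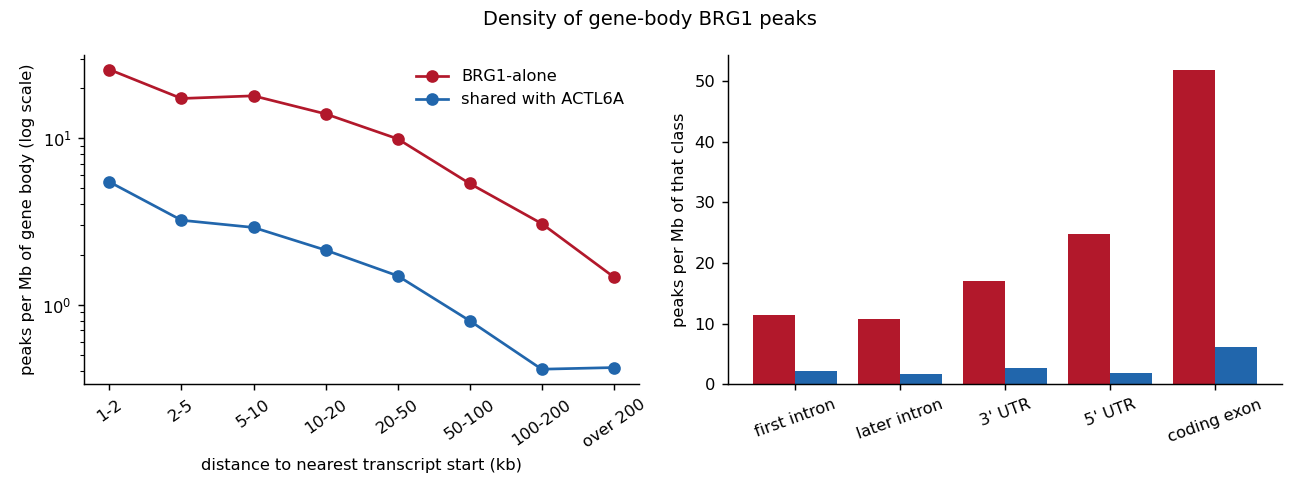
Left, gene-body BRG1 peaks per Mb of allowed gene body (log axis) by distance in kb to the nearest transcript start, for BRG1-alone (red) and shared (blue) peaks, which went from 25.8 and 5.46 per Mb at 1 to 2 kb to 3.07 and 0.410 at 100 to 200 kb and 1.47 and 0.419 beyond. Right, peaks per Mb of each annotation class, highest in coding exons at 51.8 and 6.12 per Mb.

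By chromosome, the BRG1-alone peaks were densest on chromosome 19 (36.8 per Mb of allowed gene body), 17 (30.2) and 22 (28.4) and sparsest on chromosomes 4 (6.61), X (3.25) and Y (0.877). The shared peaks were densest on chromosomes 19 (8.42 per Mb), 17 (5.90) and 22 (4.06) too. Runs of neighbouring peaks were also counted, without a share expected from the density alone, so the counts do not show clustering. When summits up to 12.5 kb apart were joined, 2777 of the peaks (19.0%) fell into 758 runs of at least 3, and the largest runs held 13. They lay over RASA3 and C13orf46 (87.2 kb) and in MAD1L1 (77.5 kb). A run of 9 peaks over 49.3 kb lay in LAMA5, the laminin alpha 5 chain. RASA3, C13orf46 and LAMA5 were named after the runs had been seen.

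The AP-1 site was centred on the summits of the BRG1-alone peaks. Of the 14604 windows of 200 bp around a summit, 1824 (12.5%, 12.0% to 13.0%) held TGACTCA on either strand, against 2.99% of the windows of the same length centred 1 kb to each side. The difference was 9.50 percentage points (8.93 to 10.1). Of all BRG1 peaks, 11.0% held it at the summit. The nearest copy lay a median of 38 bp from the summit, and 262 peaks held at least 2 copies. Matches ran at 0.853 per kb per peak within 50 bp of the summit and 0.152 beyond 1 kb. The same letters read backwards, ACTCAGT, which keep the base composition but not the site, were in 3.57% of summit windows and 2.40% of flanks.

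AP-1 was the first among all words of this length. Of 8192 words of 7 letters, both strands counted together, 5829 were in at least 1% of the flank windows, and TGACTCA had the highest ratio of summit to flank share, 4.17. The next 4 words (ratios 3.49, 3.29, 2.83 and 2.63) were TGACTCA shifted by 1 base. The highest ratio of a word that did not overlap it was 2.51 (2.78% against 1.11%), for a GC-rich word with a CpG. This ranking was added after the listed motifs had been counted.

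Of the 22 motifs searched, 13 were more frequent at the summits than in the flanks, 5 were less frequent, and for 4 the interval of the difference held 0. The 13 include both controls, the backwards forms of AP-1 and TEAD, with differences of 1.18 and 0.493 points. The CTCF core was in 640 summit windows (4.38%) and 0.986% of flanks, a difference of 3.40 points (3.05 to 3.76), and in 4.38% of all BRG1 summits. Its ratio, 4.44, was close to that of AP-1. AP-1 and the CTCF core were rarely together, with 35 windows holding both, 1.92% of the AP-1 windows and 5.47% of the CTCF windows. Neither was found in 83.4% of the windows.

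GGAATG, the core bound by the TEAD partners of YAP, was in 12.2% of summits and 10.4% of flanks (difference 1.75 points, 1.12 to 2.39). The E-box CAGCTG was in 16.9% and 11.0% (5.91 points), and the GC box GGGCGG of the SP factors was in 13.2% and 7.94% (5.22 points). The antioxidant response element core TGACNNNGC, the site of NRF2 with its MAF partners, was in 11.8% and 8.17% (3.64 points). It overlaps AP-1 in TGACTCAGC, which was in 1.33% of summits and 0.315% of flanks, and its other forms were in 10.7% and 7.87%. The word GGGTGTGG of KLF factors, AGGAAGT of ETS factors and TGTGGT of RUNX factors differed by 0.476, 0.479 and 0.883 points. Each was below the 1.18 points of the AP-1 letters read backwards.

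Sites of several gut transcription factors were not more frequent at these summits. TGTTTAC, bound by FOXA factors, was in 2.14% of summits and 2.14% of flanks (difference 0.0068 points, -0.275 to 0.302), and the HNF4 word CAAAGTCCA was in 0.233% and 0.226%. The A- and T-rich words AGATAA of GATA factors (4.45% against 9.03%) and TTTATNG of CDX and posterior HOX factors (3.53% against 9.16%) were less frequent at the summits, as were those of CEBP, GRHL and SOX factors. The summit windows were richer in GC, with a median of 58.0% against 49.2% in the flanks, and this difference moves with the frequency of such words. Its part in them, and in the GC-rich words GGGCGG and CAGCTG, was not tested.

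AP-1 was found more often the higher the peak was. Among BRG1-alone gene-body peaks of 3 fragments, 3.21% held AP-1 (n = 1493), about as many as in their flanks (3.08%). The share was 7.28% at 4 to 5 fragments, 13.7% at 8 to 10, 18.9% at 11 to 15, 24.2% at 16 to 25, 30.6% at 26 to 40 and 31.9% (24.0% to 40.9%, n = 113) above 40. The flanks stayed between 2.62% and 4.42% in every range. By the caller's q, the share rose further, from 3.66% at a -log10 q of up to 2 to 51.4% (42.0% to 60.7%, n = 107) above 30. The CTCF core did not rise to the top. It was in 1.88% of peaks of 3 fragments, 8.39% of those of 16 to 25 and 3.54% (1.38% to 8.75%) above 40.

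The AP-1 difference from the shared peaks was negative over all heights and changed sign when weighted to like heights. Among peaks of at least 8 fragments it stayed negative (-4.16 points, -6.30 to -2.09). Over all heights, 12.5% of the BRG1-alone and 19.3% of the shared gene-body peaks held AP-1, a difference of -6.78 points (-8.49 to -5.16). Within 8 ranges of fragments, the BRG1-alone peaks had the higher share in 3, with an interval above 0, and in the other 5 the interval held 0, with differences from -2.61 to 4.84 points. At 11 to 15 fragments the shares were 18.9% and 13.2% (difference 5.76 points, 1.76 to 9.19). Above 40 they were 31.9% and 32.3%. Weighted to the fragments of the BRG1-alone peaks, the shared peaks had 10.3%, and the difference was 2.23 points (normal interval 0.765 to 3.70). Of the weight, 56.1% lay on peaks of at most 7 fragments, where few shared peaks held AP-1. They were 2 of 52 at 3 fragments, 7 of 215 at 4 to 5 and 11 of 209 at 6 to 7.

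In 8 ranges of -log10 q, the BRG1-alone peaks had the higher share in 5, with an interval above 0, and none had an interval below 0. Above 30 the shares were 51.4% and 34.0% (difference 17.4 points, 6.87 to 27.8). The high peaks of both sets differed in base composition. Above a -log10 q of 10, 45.6% of the 1549 BRG1-alone peaks had a window GC under 50%, against 22.6% of the 1197 shared peaks. Within the windows under 50% GC, 52.3% of the BRG1-alone and 47.0% of the shared peaks held AP-1 (difference 5.30 points, -1.70 to 12.2), and within those of at least 50% GC, 25.3% and 24.6% did (0.701 points, -3.32 to 4.75). Both intervals held 0. The ranges of q and the split by GC were chosen after the shares by fragments had been seen.

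The CTCF core was less frequent in the BRG1-alone peaks, over all heights and in 3 of the 8 ranges of fragments. It was in 4.38% of BRG1-alone and 8.25% of shared peaks (difference -3.86 points, -5.07 to -2.78), and at 6 to 7, 8 to 10 and 11 to 15 fragments the interval lay below 0, with 6.68% and 11.7% at 11 to 15. In the other 5 ranges the interval held 0, among them the highest, with 3.54% and 2.70% above 40 fragments. In 8 ranges of -log10 q, the interval lay below 0 in 4 and held 0 in 4. At a -log10 q of 10 to 20 the shares were 8.36% and 13.2% (difference -4.81 points, -8.18 to -1.74). Above a -log10 q of 10, the windows of at least 50% GC had the core in 11.5% of the BRG1-alone and 9.60% of the shared peaks (difference 1.92 points, -0.945 to 4.83). Those under 50% GC had it in 2.55% and 4.44% (-1.90 points, -5.19 to 0.474).

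**Figure D2:**
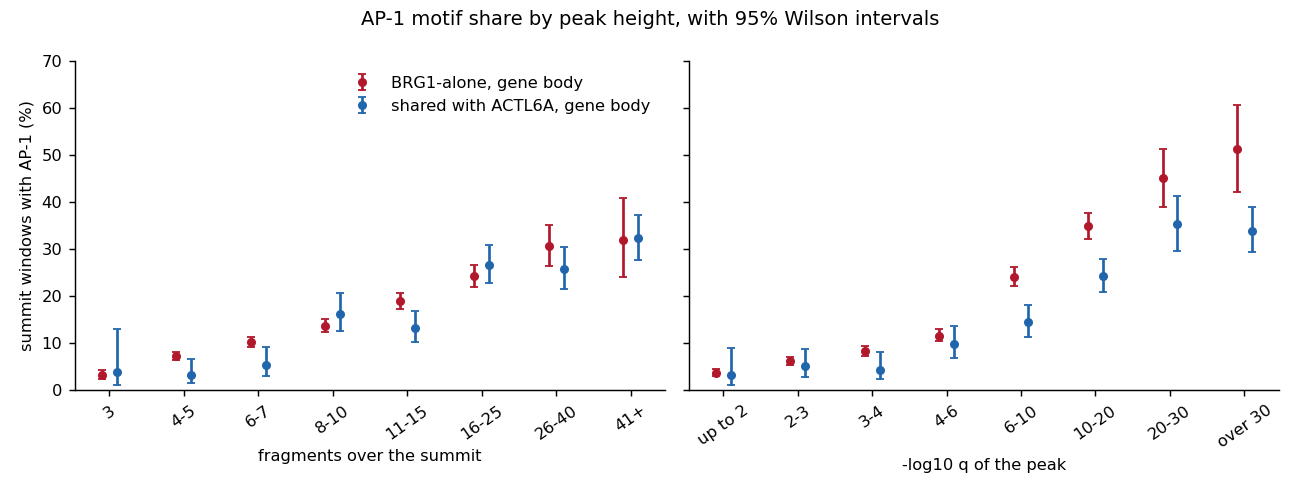
Share (%) of 200 bp summit windows with AP-1 in BRG1-alone (red) and shared (blue) gene-body peaks, by fragments over the summit (left) and by -log10 q (right), with 95% Wilson intervals. Both sets rise with height, and above a -log10 q of 30 the BRG1-alone peaks stand at 51.4% and the shared peaks at 34.0%.

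AP-1 was most frequent in windows of low GC content. It was in 41.0% of the 1348 BRG1-alone windows with a GC content of up to 45%, in 26.1% at 45% to 50%, 7.52% at 55% to 60% and 2.70% above 70%. Flanks of these peaks stayed between 1.86% and 3.34%. The backwards letters fell over the same range from 7.49% to 0.507%. With at least 50% GC, AP-1 still rose with height, from 2.34% at 3 fragments to 24.7% (17.1% to 34.4%) above 40, and under 50% GC it rose from 7.54% to 65.0% (43.3% to 81.9%, n = 20). A GC content of at least 50% was found in 81.9% of the BRG1-alone and 84.3% of the shared windows (difference -2.36 points, -3.89 to -0.728). With every list held to a -log10 q of 5 or more, the difference was -14.0 points (-16.8 to -10.8). In the 8 ranges of fragments, this difference had an interval below 0 in 4 and one that held 0 in 4.

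Intronic peaks held AP-1 more often than exonic ones. The share was 13.7% in introns (13.1% to 14.3%) and 4.05% in coding exons (3.15% to 5.19%), a difference of 9.63 points (8.34 to 10.7). In 5 of 7 ranges of GC content the intronic share was the higher, with an interval above 0, and at 50% to 55% and above 70% the interval held 0. First introns had 16.5% and later introns 12.5% (difference 3.96 points, 2.44 to 5.56). In the 3′ UTRs 8.68% held AP-1 and 7.57% the CTCF core. With distance from a start, the AP-1 share went from 10.3% at 1 to 2 kb to 14.6% at 20 to 50 kb and 16.9% (13.2% to 21.5%) at 100 to 200 kb, while median height went down and median GC from 61.0% to 53.0%.

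BRG1-alone peaks between genes held AP-1 slightly more often than those inside. These 11530 peaks had a median of 6 fragments, and 15.0% held AP-1, so the gene-body peaks were 2.50 points lower (1.66 to 3.34). In 8 ranges of fragments, 5 had an interval below 0 and 3 one that held 0, among them the highest, with 31.9% inside and 22.0% between genes above 40 fragments. BRG1-alone peaks at protein-coding starts had a median of 13 fragments, and 4.25% held AP-1.

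The BRG1-alone peaks were spread over many genes. Of 19474 protein-coding genes with bases allowed by the choice, 7462 (38.3%) held at least 1, 3990 held exactly 1, and 87 held at least 10. Genes that held one had a median of 50.2 kb of allowed gene body, against 25.4 kb over all genes, and 984 peaks lay inside 2 or more genes. Over all genes there were 1.21 BRG1-alone peaks per 100 kb.

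The genes with the most peaks were long. MAD1L1, a spindle checkpoint gene, held 30 on 404 kb, all of which also lay in the overlapping gene ENSG00000286192. CAMTA1, a calmodulin-binding transcription activator, held 30, RBFOX3, a neuronal splicing factor, 28, GSE1 27, RPTOR, the raptor subunit of mTORC1, 26, PTPRN2 24, DIP2C 22, KCNQ1, a potassium channel, 19 and AGAP1 18. RPTOR and PTPRN2 also held 12 and 10 shared peaks, and KCNQ1 held 1. Every one of these genes but ENSG00000286192 had a BRG1 peak within 1 kb of a protein-coding start. Over all genes, 681 of the 1110 with 200 to 500 kb of allowed body had one, and 117 of the 307 above 500 kb.

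The leading genes by density had between 12.5 and 45.5 kb of allowed gene body, and a ranking by density favours short genes. Among genes with at least 5 peaks, ACAP3, an ARF GTPase-activating protein, had 39.9 per 100 kb with 5 peaks, TSPAN4, a tetraspanin, 33.2, FGD2 26.8, CCDC102A 25.7, PTDSS2, a phosphatidylserine synthase, 25.6 with 10 peaks, TFR2, a transferrin receptor, 24.8, BOK, a BCL2 family member, 24.4, ADAP1 24.2 with 11 peaks, ADAM11 23.2 and RASA4 20.3. PTDSS2, BOK and ADAM11 held 1 shared peak each and RASA4 held 3, with 0.199 shared peaks per 100 kb over all genes. The share of genes of like length that hold a shared peak was not computed. FGD2 and ADAM11 had no BRG1 peak at a start, as was so for 1387 of the 4583 genes with 20 to 50 kb of allowed body.

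Whether a gene carried BRG1 at its start went with BRG1-alone peaks in its body, mostly in long genes. Among genes with 200 to 500 kb of allowed body, 79.3% of the 681 with a BRG1 peak within 1 kb of a start held a BRG1-alone peak, against 48.3% of the 429 without (difference 31.0 points, 25.3 to 36.5), at 0.983 and 0.406 per 100 kb. For 5 to 20 kb the shares were 29.6% and 26.3% (3.35 points, 0.821 to 5.84), and up to 5 kb 10.4% and 8.84%, with an interval that held 0. ACTL6A at a start went with a lower share at 5 to 20 kb (25.8% against 30.0%) and a higher one at 200 to 500 kb (75.6% against 62.4%, difference 13.2 points, 7.57 to 18.5). Whether these genes were expressed was not measured here.

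Gene lists for gastric epithelium and for the pathways of the study are described by their counts, and no difference between lists was tested. Density and the share of genes holding a peak both moved with gene length. The density of a list is its peaks over its summed gene body, so its long genes weigh most. It was not matched to gene length. Over all genes, those with 5 to 20 kb of allowed body had 3.28 BRG1-alone peaks per 100 kb and 28.4% of them held one. The values were 2.18 and 42.0% at 20 to 50 kb, 1.64 and 52.6% at 50 to 100 kb, 1.27 and 62.2% at 100 to 200 kb and 0.285 and 68.4% above 500 kb.

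The 30 SWI/SNF subunit genes, with a median of 49.8 kb of allowed body, had 2.20 BRG1-alone peaks per 100 kb. All genes had 2.18 at 20 to 50 kb and 1.64 at 50 to 100 kb. The list runs up to 407 kb in ARID1B, so neither range stands for it. Of the 30, 19 held one (63.3%, with 38.3% over all genes, whose median length was 25.4 kb). ARID1B held 11, ARID1A 5, BICRA 5, and SMARCA4, which encodes BRG1 itself, 5. Of the 30 receptor tyrosine kinase and gastric cancer driver genes (median 44.6 kb), 15 held one (50.0%) at 2.04 per 100 kb, among them EGFR with 9, MET with 5 and EPHA2 with 4. EGFR and MET also held 3 shared peaks each.

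Among 37 glutathione and ferroptosis genes, 20 held one (54.1%). With a median of 19.9 kb of allowed body and up to 220 kb in ME1, they had 1.94 per 100 kb. No value for genes of like lengths was computed. GCLC, which encodes the catalytic chain of the enzyme that starts glutathione synthesis, held 5, with between 5 and 11 fragments over the summit. It held no shared peak farther than 1 kb from a start. Within 1 kb of a protein-coding start, GCLC had peaks of BRG1, ACTL6A and NRF2. TXNRD1, a thioredoxin reductase, held 3 BRG1-alone peaks. The highest of the GCLC peaks, chr6:53593293-53593497, had 11 fragments against 0.420 expected and was the only one of the 5 with AP-1 in its window. This peak lay in no intron of a canonical transcript. GCLC is on the - strand, and the peak lay upstream of the ACTL6A peak that the paper reported near the GCLC start. Of the 33 epithelial adhesion and keratin genes (median 41.7 kb), 20 held one (60.6%, 1.90 per 100 kb), with 6 each in TJP1 and PARD3, genes of tight junctions and cell polarity, and 5 in ITGB4, the integrin beta 4 of hemidesmosomes, at 16.9 per 100 kb.

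The 37 focal adhesion and actin genes (median 99.7 kb) had 29 with a peak (78.4%, 1.55 per 100 kb), led by PALLD with 14, TLN2 with 10 and TNS3 with 10. Of 28 YAP and TEAD pathway genes (median 89.6 kb), 18 held one (64.3%, 1.46 per 100 kb), with 10 in TEAD1. Of 26 gastric and gut transcription factor genes (median 18.2 kb), 12 held one (46.2%, 1.23 per 100 kb), with 4 in GATA4. The 27 long neuronal adhesion and synapse genes, with a median of 1202 kb of allowed body, had 16 with a peak (59.3%) but 0.0832 per 100 kb. Of the 27, 5 had BRG1 at a start, and of the 30 SWI/SNF genes 29 did. Over all genes, 117 of the 307 above 500 kb had it, 3196 of the 4583 with 20 to 50 kb and 2093 of the 2888 with 50 to 100 kb.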

How the data were processed

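Peak lists of 5 CUT&Tag libraries of SNU638 cells were read as the authors deposited them. The submitters' processing notes name fastp 0.23.0, BWA, MACS2 and hg38. Peaks were called in each library on its own, and the control given to the caller is not given in the sources used here. Each deposited peak has a score, a fold enrichment at the summit (a ratio with a pseudocount of 1), a -log10 p and a -log10 q, with a lowest -log10 q of 1.30 in the BRG1 list. The lists give no library depth and no reads. Per the study's methods, peaks were called on uniquely mapped reads with a q cutoff of 0.05. Repeats were not marked in the reference from which sequences were read here.

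The peaks described, gene lists and motifs were chosen with earlier results of these data known. Peaks overlapped when they shared 1 bp. Starts were those of transcripts typed protein-coding or lncRNA. Any base of a protein-coding gene outside the exons of its protein-coding transcripts counted as intron. Fragments over a summit were taken as the integer for which the deposited fold and p both hold within 0.001 on the -log10 scale, which could be found for every BRG1-alone gene-body peak and for all but 4 BRG1 peaks. Motifs were searched on both strands in 200 bp around the summit and in 2 windows of 200 bp centred 1 kb to each side, and a difference was called when its 95% Newcombe interval left out 0. Differences weighted by height have a normal interval combined over the ranges instead. All these intervals cover counting error only. Named genes were the hosts of the 10 highest peaks, the 10 genes with the most peaks, the 10 densest with at least 5, the leading genes of each list and the hosts of the 10 highest peaks with AP-1 within 25 bp of the summit, chromosome 8 left out. The choices varied were a stricter -log10 q of 5, no other peak within 500 bp, 3 kb from starts, either IgG list, 100 bp windows or whole peaks, and other forms of the motifs. Alternatives on transcript starts, on at least 8 fragments and on weighting by height were chosen after seeing the data. The routines were tested on simulated data. The values of 1 gene list and 1 sequence are not reported here. Scripts ran in Python 3.11.15 with pandas 2.3.3, NumPy 2.4.6, pysam 0.24.0, SciPy 1.17.1 and matplotlib 3.10.9.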

Additional observations from a re-analysis of the deposited data

How the results depend on the processing

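Of 74 values recomputed under an alternative, 58 kept their direction and their side of 0, or stayed within the counting interval of a share or within 1.5 times a count. When every list was held to a -log10 q of 5 or more, there were 5126 BRG1-alone gene-body peaks in 3737 genes, 85.3% of gene-body BRG1 peaks were alone, 87.8% of those alone were intronic, 26.7% held AP-1, AP-1 was 1.30 points higher than in the shared peaks (-2.15 to 4.53), the reverse of the direction over all peaks, and its difference from the peaks between genes was -1.07 points (-2.85 to 0.705), with an interval that held 0. The AP-1 difference from the shared peaks also reversed when these were weighted to the fragments of the BRG1-alone peaks (2.23 points) or to their -log10 q (3.73 points), both chosen after seeing the data. With at least 8 fragments, also chosen after seeing the data, this difference kept its direction (-4.16 points, -6.30 to -2.09). The cause of the reversals was not tested. The share alone was 81.4% with no other peak within 500 bp, 84.9% beyond 3 kb from starts and 74.6% with at least 8 fragments, and the intronic share 87.0% beyond 3 kb. The AP-1 share was 7.34% in 100 bp windows, 15.1% for TGANTCA and 18.8% with at least 8 fragments. Without IgG 2, 14621 peaks were chosen. With starts of every transcript of protein-coding and lncRNA genes, there were 12989. AP-1 was higher at summits than in flanks under each of the 8 alternatives run. Leaving out windows rich in repeats was not run, since the reference does not mark repeats. No paired analysis was possible because antibodies were not replicated. With a median of 7 fragments over the summit, a peak next to a weak ACTL6A site cannot be told from one without.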
